A study of Mus musculus with 2 samples.

Results

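Arginine enters cells mainly through the cationic amino acid transporters, and it is then the shared substrate of enzymes that use it in different ways. The genes described here are the transporters Slc7a2 and Slc7a1, the arginases Arg1 and Arg2, the inducible nitric oxide synthase Nos2, the arginine-making enzyme Ass1 and the polyamine enzyme Odc1. They were found by symbol, and all 7 were present among the 32285 genes measured. Slc7a2 was picked because it was already known to be higher in WQ-2101 tumour cells, so its level in those cells is given as a description that supports nothing further.

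The data are droplet 3' single-cell RNA counts from CT26 tumours, a colon carcinoma line of BALB/c mice, grown under the skin of 5-week-old wild-type animals. One group received WQ-2101, a PHGDH inhibitor, at 20 mg/kg into the peritoneum each day once tumours reached about 100 mm³. The other received vehicle on the same schedule, and tumours of both were taken on day 17. Each group is 1 library of an unsorted suspension under a shared batch label. How many mice went into a library was not stated in the labels. The question here is how PHGDH inhibition changes the genes for arginine in the tumour and its macrophages.

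Because each group is 1 library, there is no replicate error and no test of the treatment. Every interval below is a 95% interval that covers counting error only. A level is the count of a gene's molecules (UMIs) in all cells of a class divided by the class's total and brought to the same total in every class (CPM). A difference is the log2 of the WQ-2101 level over the vehicle level, after 5 CPM was added to each, and it was counted as higher or lower from 1.5-fold on. Since the assay reads 3' ends, levels are compared between cells for 1 gene and not between genes.

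As background, macrophages are known for using arginine along opposed routes. Arginase turns it into ornithine and urea, and ornithine feeds polyamine and proline synthesis, while inducible nitric oxide synthase turns it into nitric oxide and citrulline. Citrulline can be rebuilt into arginine by the enzymes encoded by Ass1 and Asl. In tumours, arginase-rich macrophages are known for lowering the arginine that T cells need.

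The kept cells numbered 17293 in the WQ-2101 library and 13668 in the vehicle library, with medians of 8048 and 10742.5 UMIs. They were placed in 10 classes by marker genes, none of which is an arginine gene. Tumour cells numbered 7590 in WQ-2101 and 5760 in vehicle, macrophages and monocytes 3885 and 4193, and T cells 673 and 581. These 3 classes had at least 100 cells in each library and were compared. In the tumour cells 15 of 16 listed tumour markers in WQ-2101 and 14 of 16 in vehicle were above 0, summing to 1512 CPM and 1467 CPM, against 289 CPM and 304 CPM in macrophages and monocytes. Hmga2, Igf2bp2 and Igf2bp3 are among those markers and also set the tumour gate, so their part of the sum follows from the gate. The same list summed to 1964 CPM in WQ-2101 neutrophils and 1399 CPM in vehicle ones, from 59 and 130 cells. The sum therefore does not single out tumour cells. No class was given to 26.2% of WQ-2101 cells and 19.0% of vehicle cells. An unnamed cluster of 2775 WQ-2101 and 117 vehicle cells held 14.3% of the gated WQ-2101 macrophages and 0.763% of the vehicle ones, and 7.92% and 0.330% of the tumour cells. By Leiden clusters, which leave that cluster out, the log2 differences were 1.67 for Slc7a2 in tumour cells, and 1.01 for Slc7a2, -0.48 for Arg1 and 0.91 for Nos2 in macrophages and monocytes. By the gate they were 1.67, 0.98, -0.53 and 0.92. The libraries shared 73 barcodes, and leaving these out moved no member across 1.5-fold in the 3 compared classes.

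Promoter sequence was held for 3 of the 7 genes, and it is shown because they cover unlike outcomes. Slc7a1 stayed within 1.5-fold in all 3 compared classes, Ass1 was higher in WQ-2101 tumour cells and lower in WQ-2101 T cells, and Odc1 was lower in WQ-2101 T cells. The lines give the 250 bases before the RefSeq start on GRCm38.p6, read 5′ to 3′ on the gene's strand, at chr5:148399905-148400154 (minus), chr2:31470020-31470269 (plus) and chr12:17544623-17544872 (plus). Capitals mark GGGCGG (the GC box) or its reverse complement, and in Ass1 also CACGTG (the E-box).
Slc7a1: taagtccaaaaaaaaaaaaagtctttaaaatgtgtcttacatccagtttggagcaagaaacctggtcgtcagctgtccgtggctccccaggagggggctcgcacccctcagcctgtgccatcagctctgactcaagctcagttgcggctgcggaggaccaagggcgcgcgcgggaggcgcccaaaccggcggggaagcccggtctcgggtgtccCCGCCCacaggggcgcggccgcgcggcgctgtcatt
Ass1: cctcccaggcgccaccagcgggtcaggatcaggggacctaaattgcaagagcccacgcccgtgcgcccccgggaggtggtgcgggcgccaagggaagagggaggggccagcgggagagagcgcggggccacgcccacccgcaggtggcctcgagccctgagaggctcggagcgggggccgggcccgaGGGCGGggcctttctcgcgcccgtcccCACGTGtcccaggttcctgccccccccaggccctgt
Odc1: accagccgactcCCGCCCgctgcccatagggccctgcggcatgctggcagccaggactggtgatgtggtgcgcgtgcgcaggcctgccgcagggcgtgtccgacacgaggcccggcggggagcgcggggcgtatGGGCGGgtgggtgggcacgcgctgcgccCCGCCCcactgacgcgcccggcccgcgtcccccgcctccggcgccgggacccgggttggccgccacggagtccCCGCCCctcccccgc

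On either strand, the GC box was found 1 time in the Slc7a1 window, 1 time in Ass1 and 4 times in Odc1, and 32.74% of 32851 promoters of that length hold it. Slc7a1 has a second RefSeq start, at chr5:148392816-148393065 (minus), whose window holds no GC box and has TATAAA (the TATA box) 28 bases before the start, a motif held by 12.37% of promoters. The E-box was found only in Ass1 among the 3 windows printed, 36 bases before the RefSeq start, and 6.021% of promoters hold it. By GENCODE, Ass1 starts at 31470207 and Odc1 at 17544794, inside their windows. The Ass1 E-box and the Odc1 GC box nearest the RefSeq start thus lie within the GENCODE genes. The ATF4 element TGATGNAA, held by 3.452% of promoters, was in none of the 3 windows. These are letter matches in a short window and say nothing of binding.

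Slc7a2 encodes the transporter CAT2 and lies on GRCm38 chromosome 8 at 40862396 to 40922308 on the plus strand, where a non-coding gene, Gm26584, overlaps it on the other strand. Macrophages and monocytes carried it at the highest level of any class in both libraries, at 442 CPM (434 to 451) in WQ-2101 and 222 CPM (217 to 228) in vehicle. Fibroblasts followed at 171 CPM in WQ-2101 and 156 CPM in vehicle, from 82 and 177 cells. Their intervals overlapped (142 to 205 and 139 to 174). Mural cells, the cells of vessel walls, were at 166 CPM in WQ-2101 and 25.5 CPM in vehicle, but from only 17 and 4 UMIs. Those UMIs lay in 2 of 21 WQ-2101 cells and 3 of 25 vehicle cells. Dendritic cells were at 104 CPM in WQ-2101 and 16.03 CPM in vehicle, from 26 and 8 UMIs.

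In tumour cells Slc7a2 was at 76.6 CPM (75.0 to 78.3) in WQ-2101 and 20.6 CPM (19.7 to 21.5) in vehicle. The ratio was 3.72 (3.54 to 3.90) and the log2 difference 1.67. That difference is the one the gene was chosen for. In T cells it was at 14.1 CPM in WQ-2101 and 5.81 CPM in vehicle, from 28 and 12 UMIs. NK cells had 31.2 CPM in WQ-2101 and 2.15 CPM in vehicle, from 18 UMIs and 1 UMI. Neutrophils and B cells had at most 4 UMIs of Slc7a2 in either library.

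**Figure D1:**
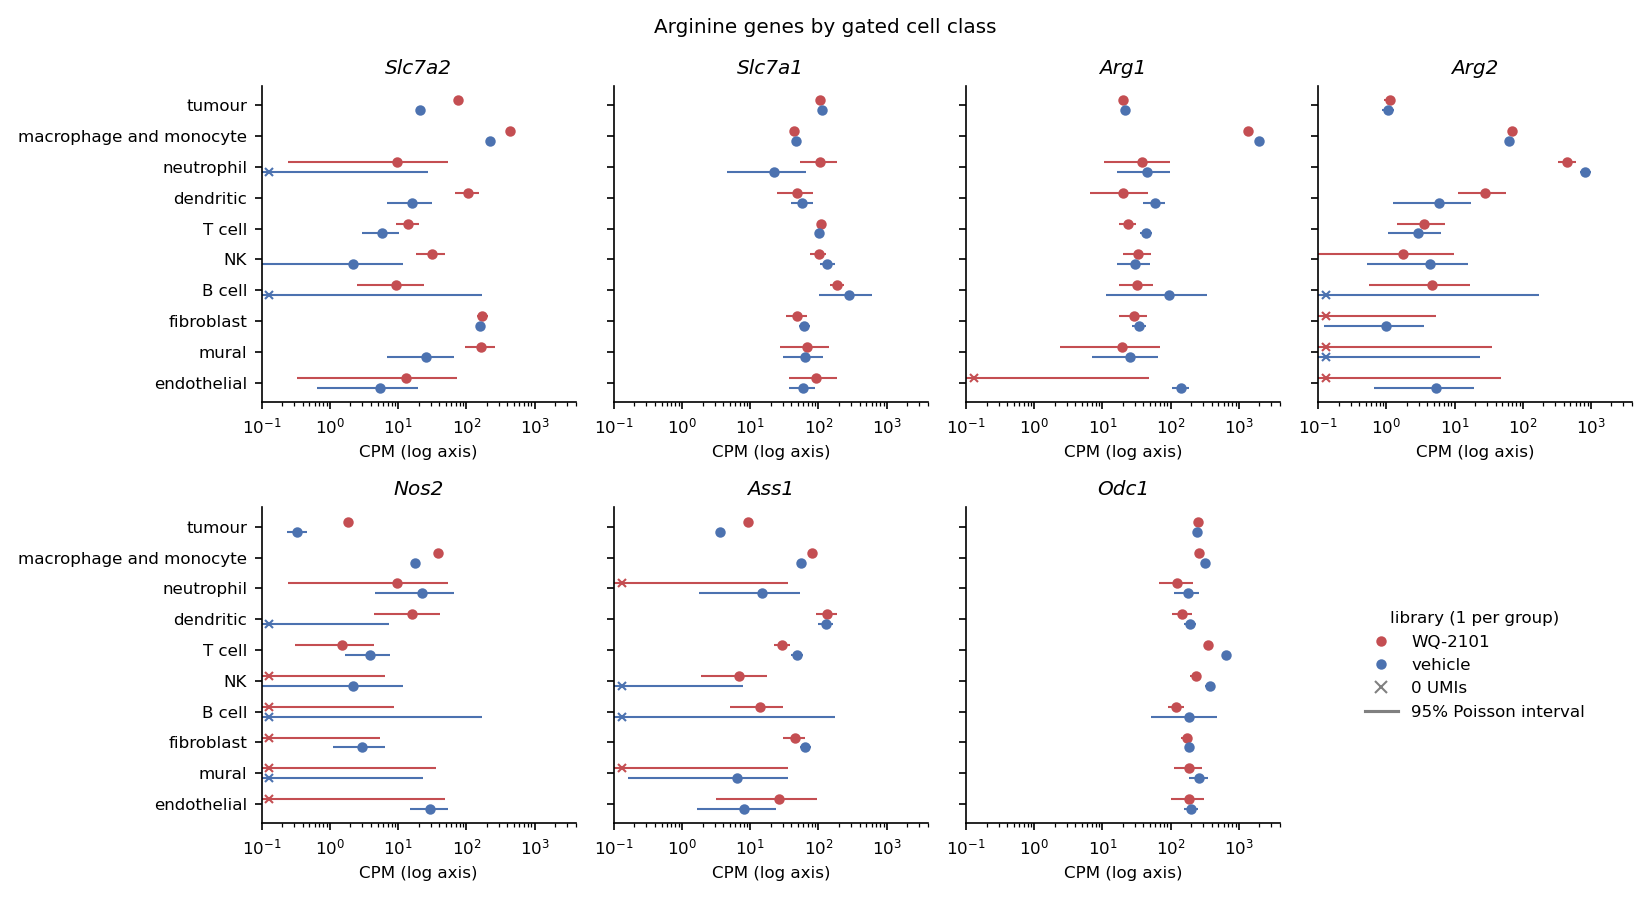
Level of each arginine gene (horizontal log axis, CPM) in the 10 marker-gated classes, with WQ-2101 above vehicle in each class; points are summed counts of 1 library, lines are 95% Poisson intervals and crosses mark 0 UMIs. Slc7a2, Arg1 and Nos2 in WQ-2101 are highest in macrophages and monocytes, and Arg2 is highest in neutrophils, at 452 CPM in WQ-2101 and 829 CPM in vehicle.

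Macrophage transcripts were also counted in tumour cells. There, 6 macrophage genes (Lyz2, C1qa, C1qb, C1qc, Apoe and Ctss) stood at 1.51% to 1.81% of their macrophage level in WQ-2101 and at 1.05% to 1.32% in vehicle. Slc7a2 stood at 17.3% in WQ-2101 and 9.27% in vehicle, above that range in both libraries. Arg1, at 1.49% in WQ-2101 and 1.11% in vehicle, lay just below it in WQ-2101 and within it in vehicle. Arg1 was at 20.1 CPM in WQ-2101 tumour cells and 21.6 CPM in vehicle tumour cells, and what part of that is macrophage RNA was not tested.

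The share of tumour cells with a Slc7a2 UMI was 32.7% in WQ-2101 and 13.4% in vehicle, at median depths of 12982 and 16327.5 UMIs. Every thinned share in this report leaves out the cells below the thinning depth. After thinning to 2000 UMIs, which kept 7396 WQ-2101 and 5720 vehicle tumour cells, the share was 10.6% (9.93 to 11.4) in WQ-2101 and 3.36% (2.91 to 3.86) in vehicle. In T cells, a class with few Slc7a2 molecules, the thinned share was 2.71% (1.41 to 4.69) in WQ-2101 and 0.438% (0.0530 to 1.57) in vehicle, from 442 and 457 cells. Over all T cells the unthinned median depths were 2461 and 2887 UMIs. Both tumour shares lay above the T cell share of their own library.

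Most tumour cells had no Slc7a2 molecule counted and a few had many, up to 48 UMIs in a cell in each library. Thinning to 5000 UMIs kept 6604 WQ-2101 and 5535 vehicle tumour cells. Of those from WQ-2101, 79.8% had no Slc7a2 UMI, 12.6% had 1 and 0.878% had 6 or more. In vehicle, 94.6% had none and 0.289% had 6 or more. Cells with many molecules were thus present in both libraries, and more of them were found in WQ-2101.

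**Figure D2:**
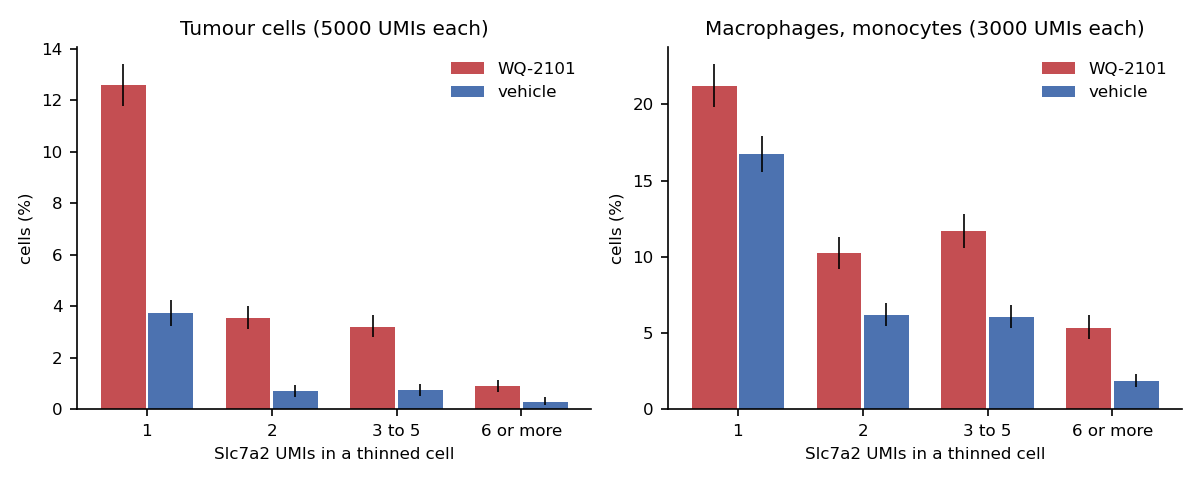
Share of cells (vertical axis, %) with 1, 2, 3 to 5, and 6 or more Slc7a2 UMIs after thinning to 5000 UMIs (tumour cells) or 3000 UMIs (macrophages and monocytes). Cells below that depth are left out. WQ-2101 is left of vehicle and bars carry exact binomial 95% intervals. WQ-2101 is higher at every step, with 5.35% of macrophages and monocytes at 6 or more UMIs in WQ-2101 and 1.82% in vehicle.

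Tumour cells fell into 8 Leiden clusters made without the arginine genes. Slc7a2 was 1.5-fold or more higher in WQ-2101 in 8 of 8, with log2 differences of 1.12 to 1.66. The clusters are parts of the cells that Slc7a2 was chosen from, so that count supports nothing further. The Slc7a2 level ran from 23.1 to 142.9 CPM across the WQ-2101 clusters and from 6.13 to 54.2 CPM across the vehicle ones. The ranges of the libraries overlapped across clusters, while within each cluster WQ-2101 was the higher. All 8 differences lay below the 1.67 over all tumour cells. The cluster with the most vehicle cells held 689 WQ-2101 and 1768 vehicle cells, at 54.2 and 13.7 CPM of Slc7a2. What part the mix of clusters has in the 1.67 was not tested.

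Tumour cells with at least 5000 UMIs were split into low, middle and high ranges of gene scores that hold none of the 7 genes. Across the interferon gamma score, Slc7a2 was at 60.1, 76.5 and 97.4 CPM in WQ-2101 and at 17.8, 22.3 and 27.1 CPM in vehicle. Across the proliferation score it ran the other way, at 90.9, 76.9 and 65.6 CPM in WQ-2101 and 25.7, 21.2 and 16.4 CPM in vehicle. The hypoxia score gave no order, with 74.2, 78.9 and 76.0 CPM in WQ-2101 and 20.2, 21.6 and 19.6 CPM in vehicle. The ATF4 score is built from targets of the amino acid stress factor, among them Slc3a2, which is counted below with further arginine genes. Slc7a2 across it was at 79.7, 75.7 and 73.7 CPM in WQ-2101 and at 19.3, 23.9 and 18.6 CPM in vehicle. Across the keratin score it was at 69.3, 80.6 and 83.5 CPM in WQ-2101 and at 17.2, 26.7 and 30.6 CPM in vehicle. Summed keratinocyte markers in tumour cells were at 212 CPM in WQ-2101, with 3 of 6 above 0, and 101 CPM in vehicle, with 4 of 6 above 0. With each score's ranges given equal weight in the 2 libraries, the log2 difference lay between 1.55, for the keratin score, and 1.68, for the ATF4 score.

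**Figure D3:**
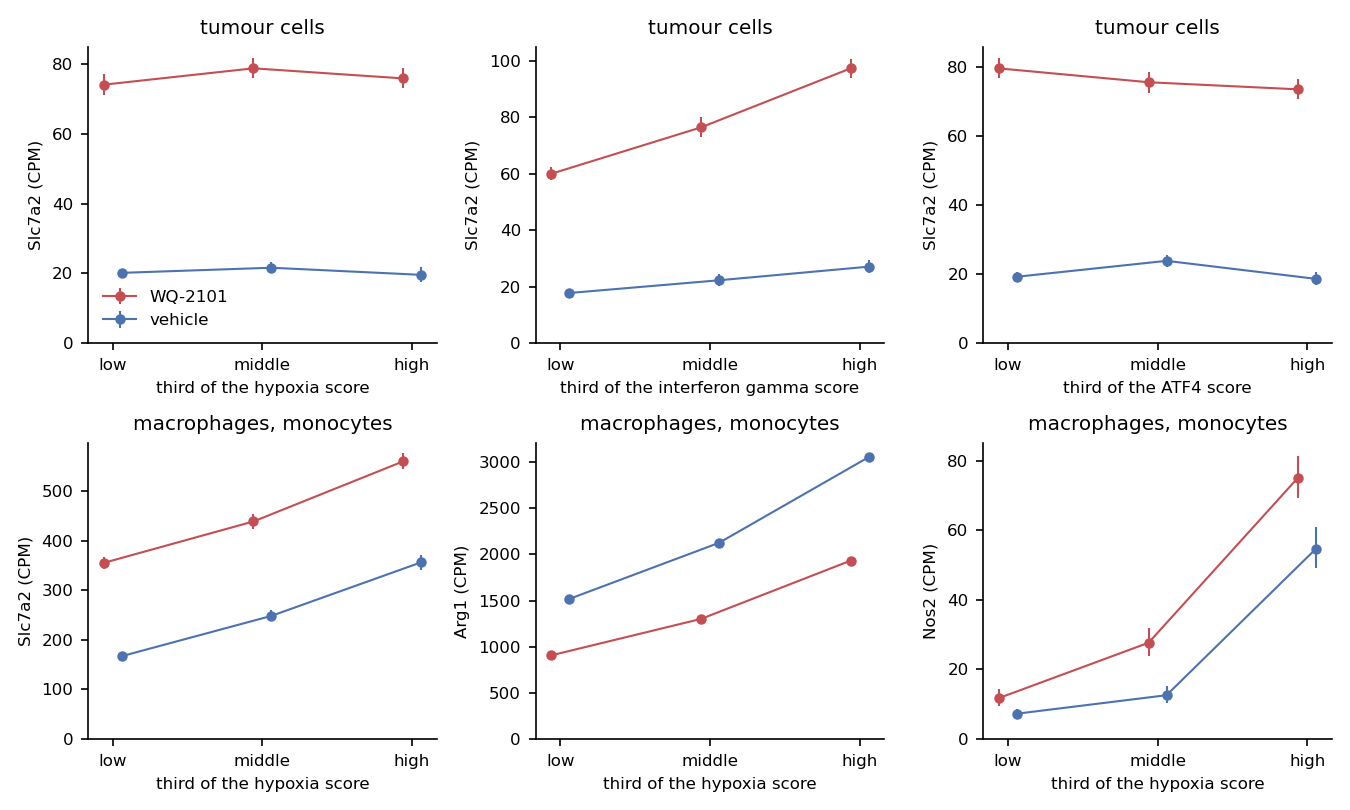
Level (vertical axis, CPM) of Slc7a2 in tumour cells across low, middle and high ranges of the hypoxia, interferon gamma and ATF4 scores (top), and of Slc7a2, Arg1 and Nos2 in macrophages and monocytes across the hypoxia score (bottom); points are 1 library, with WQ-2101 left of vehicle, and bars are 95% Poisson intervals. In macrophages all 3 genes are higher in the high hypoxia range than in the low one in both libraries, while Slc7a2 in tumour cells has no such order.

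Of the 7 genes, 5 reached a mean of 5 CPM in tumour cells. Slc7a2 and Ass1 were the 2 called higher and none was called lower. Of all 10008 genes tested in tumour cells, 0.889% were called higher and 0.41% lower, or 1.3% in either direction. Since Slc7a2 was picked from this very comparison, nothing is read from that count.

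Slc7a1 encodes CAT1, the more widely used arginine transporter, and lies on chromosome 5 at 148327410 to 148399904, minus strand. Tumour cells had 105.5 CPM (103.6 to 107.5) in WQ-2101 and 112.7 CPM (110.6 to 114.8) in vehicle. Macrophages and monocytes had 43.9 CPM in WQ-2101 and 46.8 CPM in vehicle, and T cells 111 CPM and 102 CPM. The log2 differences were -0.09, -0.08 and 0.12. B cells had the highest level, at 189 CPM in WQ-2101 and 281 CPM in vehicle, although the vehicle value rests on 13 cells and 6 UMIs.

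In macrophages and monocytes, 7 of 7 genes passed the minimum level, and 2 were called higher and 0 lower. The shares over all 9433 genes tested there were 2.51% higher and 0.572% lower, or 3.08% in either direction. The 2 called were Slc7a2, with a ratio of 1.99 (1.93 to 2.05), and Nos2, with a ratio of 2.15 (1.94 to 2.39). The share of macrophages and monocytes with a Slc7a2 UMI, thinned to 2000 UMIs, was 40.0% in WQ-2101 and 23.9% in vehicle. Within the 4 Leiden clusters of this class Slc7a2 was higher in WQ-2101 in 4 of 4 and past 1.5-fold in 3. The exception was the cluster with the highest level, at 641 CPM in WQ-2101 and 457 CPM in vehicle.

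Arg1, the cytosolic arginase of chromosome 10 (24915221 to 24927484, minus strand), was highest in macrophages and monocytes in both libraries. They had 1346 CPM (1332 to 1361) in WQ-2101 and 1952 CPM (1937 to 1967) in vehicle. The ratio was 0.690 (0.681 to 0.699), a log2 difference of -0.53, which falls short of 1.5-fold. Thinned to 2000 UMIs, 65.8% of these cells had an Arg1 UMI in WQ-2101 and 74.7% in vehicle. It was lower in WQ-2101 in 4 of 4 Leiden clusters, 1 of them past 1.5-fold. Vehicle endothelial cells had 140 CPM from 42 cells, whereas the 11 WQ-2101 endothelial cells had 0 UMIs, which allows up to 39.3 CPM.

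Nos2, on chromosome 11 at 78920787 to 78960254 (plus strand), was at 38.0 CPM (35.7 to 40.5) in WQ-2101 macrophages and monocytes and 17.7 CPM (16.3 to 19.2) in vehicle ones. Few cells held it. Thinned to 2000 UMIs, 5.00% had a UMI in WQ-2101 and 3.05% in vehicle. Of the 4 Leiden clusters of this class, Nos2 was past 1.5-fold higher in WQ-2101 in 3 and past it lower in 1. That cluster had 0 UMIs in WQ-2101 and 12 in vehicle, from 148 and 345 cells. Vehicle endothelial cells had 29.7 CPM (14.8 to 53.1) of Nos2, from 11 UMIs. In tumour cells Nos2 had 193 UMIs in WQ-2101 and 34 in vehicle, or 1.84 CPM and 0.334 CPM, a ratio of 5.51 (3.81 to 8.19). That is below the 5 CPM minimum, so Nos2 was not tested there, and after 5 CPM was added the log2 difference was 0.36, within 1.5-fold. Relative to the macrophage level that was 4.83% in WQ-2101 and 1.89% in vehicle, as point values above the macrophage marker range given before. The lower end of the vehicle interval (0.231 to 0.466 CPM) reaches into that range. What part of tumour cell Nos2 is macrophage RNA was not tested. The tumour cells in the high interferon gamma range had 4.15 CPM of Nos2 in WQ-2101 and 0.548 CPM in vehicle.

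The macrophage level of these genes moved with the hypoxia score in both libraries. From its low to its high range, Nos2 was at 11.8, 27.7 and 75.1 CPM in WQ-2101 and at 7.29, 12.6 and 54.7 CPM in vehicle. Arg1 was at 907, 1301 and 1932 CPM in WQ-2101 and at 1518, 2125 and 3052 CPM in vehicle. Slc7a2 was at 355, 439 and 560 CPM in WQ-2101 and at 167, 248 and 356 CPM in vehicle. All 3 genes were thus highest where hypoxia genes were highest. The high range held 1161 of the WQ-2101 cells scored and 802 of the vehicle cells, and the low range 1196 and 2115. With each range given equal weight in the 2 libraries, the log2 difference of Arg1 was -0.70 and past 1.5-fold, and that of Nos2 was 0.52 and no longer past it. That alternative was chosen after the values were seen.

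The interferon gamma score parted the arginase from the synthase. Arg1 was at 1708, 1446 and 1032 CPM from the low to the high range in WQ-2101 and at 2379, 1895 and 1316 CPM in vehicle. Nos2 was at 26.9, 30.3 and 55.3 CPM in WQ-2101 and at 13.8, 16.5 and 26.3 CPM in vehicle. Within every range Arg1 was lower and Nos2 higher in WQ-2101.

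Both enzymes could be found in the same cell. Thinning to 5000 UMIs kept 2477 WQ-2101 and 3251 vehicle macrophages and monocytes. Nos2 was then detected in 11.02% (9.70 to 12.5) of the WQ-2101 cells with Arg1 and in 3.11% (1.67 to 5.26) of those without. In vehicle the shares were 5.44% (4.64 to 6.33) and 1.91% (0.772 to 3.90). Slc7a2 was detected in 82.9% of Nos2-positive and 60.0% of Nos2-negative cells in WQ-2101, and in 68.9% and 39.7% in vehicle. Cells with both Arg1 and Nos2, Arg1 alone, Nos2 alone and neither numbered 227, 1832, 13 and 405 in WQ-2101. In vehicle they numbered 157, 2728, 7 and 359. Most Nos2-positive cells thus held Arg1 and Slc7a2 in both libraries, but most Nos2-negative cells held Arg1 too. What part of the Arg1 detected is RNA from other cells was not tested.

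By marker range, the 4 kinds of macrophages and monocytes differed in their arginine genes. Arg1 was lowest in the MHC class II-high range, at 970 CPM in WQ-2101 and 1140 CPM in vehicle. It was highest in macrophages outside the other ranges, at 1554 CPM and 2442 CPM. Nos2 in the C1q-high range was at 25.6 CPM in WQ-2101 and 5.59 CPM in vehicle, a log2 difference of 1.53. In the monocyte range it was at 10.8 CPM in WQ-2101 and 17.9 CPM in vehicle, the only range of the 4 where WQ-2101 was lower, from 134 and 391 cells. Slc7a2 was higher in WQ-2101 in 4 of 4 ranges, by log2 differences of 0.70 to 1.21. The ranges are cuts on a continuous score, and 27.6% of WQ-2101 and 22.6% of vehicle cells lay within 20% of a cut.

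**Figure D4:**
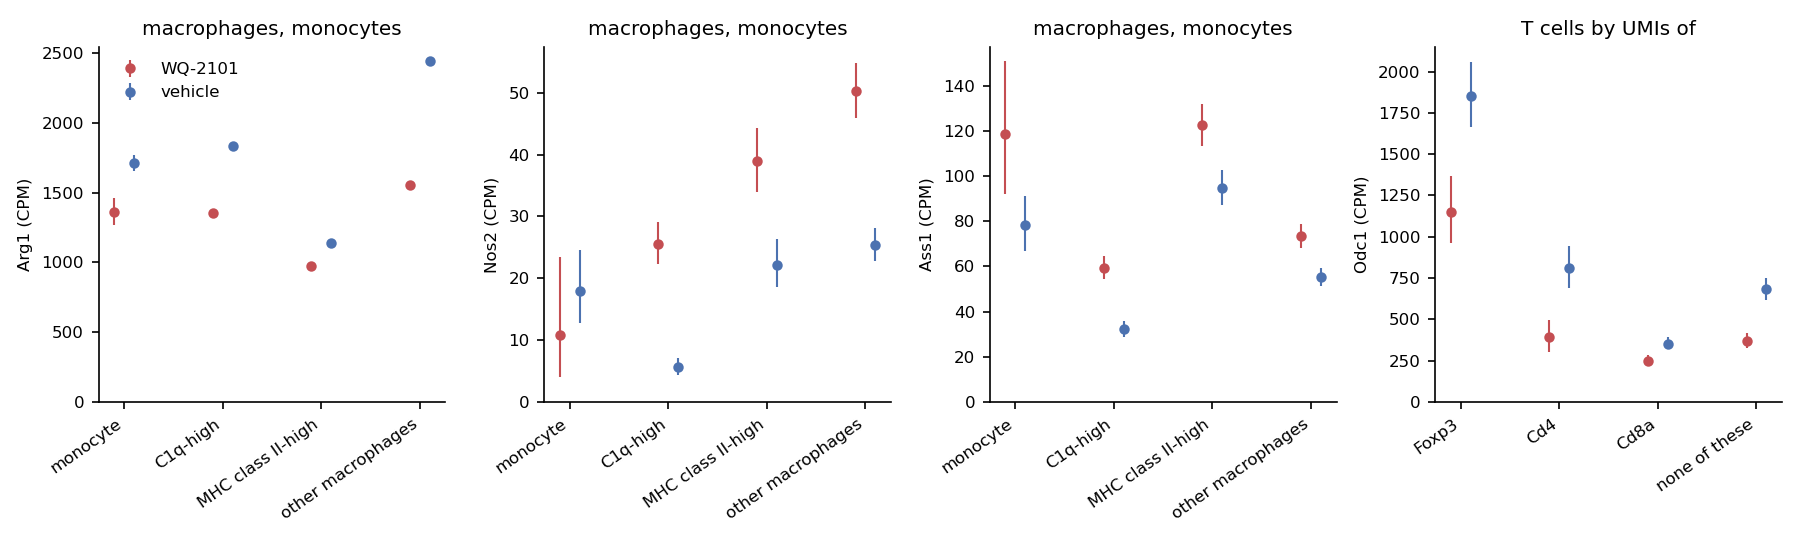
Level (vertical axes, CPM) of Arg1, Nos2 and Ass1 in 4 marker ranges of macrophages and monocytes, and of Odc1 in T cells grouped by UMIs of Foxp3, Cd4 or Cd8a; points are 1 library, with WQ-2101 left of vehicle, and bars are 95% Poisson intervals. Arg1 and Odc1 are lower in WQ-2101 in every group shown, Ass1 is higher in every macrophage range, and Nos2 is higher in 3 of the 4 ranges.

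Arg2, the mitochondrial arginase, lies on chromosome 12 at 79130777 to 79156301 and overlaps Vti1b on the other strand. Neutrophils had its highest level, at 452 CPM (332 to 602) in WQ-2101 and 829 CPM (683 to 998) in vehicle, from 59 and 130 shallow cells. These intervals did not overlap, but the class was too small to be compared by the rule used here. The share of neutrophils with an Arg2 UMI ran the other way. It was 54.2% (40.8 to 67.3) in WQ-2101 and 44.6% (35.9 to 53.6) in vehicle, at median depths of 913 and 966 UMIs. Macrophages and monocytes had 69.8 CPM in WQ-2101 and 63.5 CPM in vehicle. In tumour cells it was at 1.62% of the macrophage level in WQ-2101 and at 1.67% in vehicle, inside the macrophage marker range in WQ-2101 and above its upper end of 1.32% in vehicle.

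Ass1 makes argininosuccinate from citrulline, and lies on chromosome 2 at 31470207 to 31520672, plus strand. Its level was highest in dendritic cells, at 132 CPM in WQ-2101 and 128 CPM in vehicle, from 53 and 72 cells. Macrophages and monocytes had 80.6 CPM (77.2 to 84.2) in WQ-2101 and 56.1 CPM (53.6 to 58.7) in vehicle, a ratio of 1.44 (1.35 to 1.53). Tumour cells had 9.19 CPM (8.62 to 9.79) in WQ-2101 and 3.65 CPM (3.29 to 4.04) in vehicle, a ratio of 2.52 (2.23 to 2.85) and a log2 difference of 0.71. It was higher in WQ-2101 in 8 of 8 tumour clusters, 7 of them past 1.5-fold. Among macrophage ranges Ass1 was at 123 CPM in WQ-2101 and 94.7 CPM in vehicle where MHC class II was high, and at 59.3 CPM and 32.1 CPM where C1q was high.

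**Figure D5:**
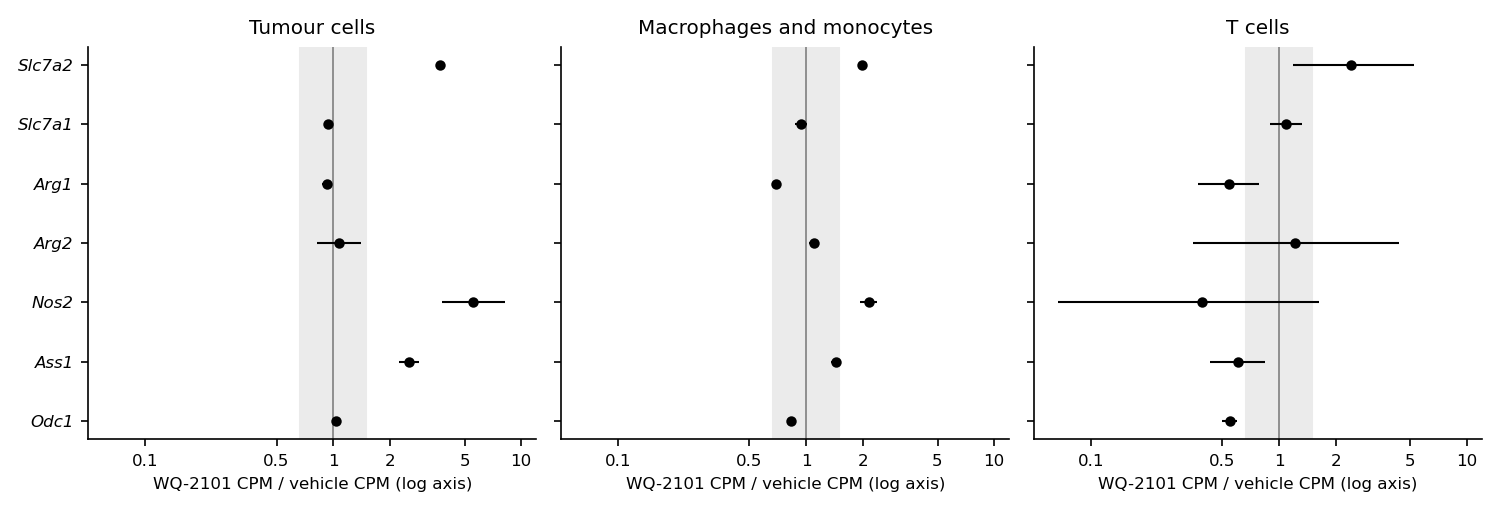
Ratio of WQ-2101 CPM to vehicle CPM (horizontal log axis) for the 7 arginine genes in tumour cells, macrophages and monocytes, and T cells; lines are exact 95% counting intervals and the grey band spans 1.5-fold either way. The points of Slc7a2 lie right of the band in all 3 classes. Those of Nos2 do so in tumour cells and macrophages, and that of Ass1 in tumour cells. In T cells the points of Arg1, Nos2, Ass1 and Odc1 lie left of it. Of the T cell points outside the band, only Odc1 has a line that does not enter it. The ratios are without the added 5 CPM, and Nos2 is below the 5 CPM minimum in tumour cells and T cells.

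Odc1 encodes ornithine decarboxylase, which starts polyamine synthesis, and lies on chromosome 12 at 17544794 to 17551505, plus strand. T cells had its highest level of the 3 compared classes, at 358 CPM (332 to 385) in WQ-2101 and 655 CPM (620.5 to 691) in vehicle. The ratio was 0.547 (0.499 to 0.599) and the log2 difference -0.86. Thinned to 2000 UMIs, 36.2% of WQ-2101 and 50.3% of vehicle T cells had an Odc1 UMI. Tumour cells had 249 CPM in WQ-2101 and 241 CPM in vehicle, and macrophages and monocytes 264 CPM and 319 CPM. NK cells had 233 CPM (195 to 275) in WQ-2101 and 376 CPM (322 to 436) in vehicle.

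In T cells 5 of the 7 genes passed the minimum level. Slc7a2 was called higher, and Arg1, Ass1 and Odc1 were called lower. Over all 9663 genes tested in T cells, 2.97% were called higher and 3.18% lower, or 6.15% in either direction. Arg1, at 23.6 CPM in WQ-2101 T cells and 43.6 CPM in vehicle T cells, stood at 1.76% and 2.23% of its macrophage level. Slc7a2, from its few UMIs, stood at 3.18% and 2.61%. Of the 6 macrophage genes, Ctss stood at 6.53% and 6.71%, and the other 5 at 1.84% to 2.52% in WQ-2101 and 1.58% to 2.002% in vehicle. By these point values, Arg1 lay below those 5 in WQ-2101 and above them in vehicle. Slc7a2 lay above them and below Ctss in both libraries. The intervals of Arg1 were 17.4 to 31.4 CPM in WQ-2101 and 35.1 to 53.6 CPM in vehicle. Those of Slc7a2 were 9.36 to 20.4 CPM and 3.00 to 10.2 CPM. With intervals this wide, the place of either gene against those 5 is not settled. What part of these levels comes from macrophage RNA was not tested. Ass1 was at 29.2 CPM (22.2 to 37.7) in WQ-2101 and 48.4 CPM (39.4 to 58.9) in vehicle, a ratio of 0.602 (0.428 to 0.841). Summed macrophage markers, 12 of 12 above 0, were at 490 CPM in WQ-2101 T cells and 458 CPM in vehicle T cells, and their part in these results was not tested.

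The T cell level of Odc1 depended on the kind of T cell. Cells with Foxp3, the regulatory T cell factor, and no Cd8a had 1151 CPM (962 to 1367) in WQ-2101 and 1853 CPM (1665 to 2057) in vehicle, from 36 and 47 cells. Cells with Cd4 alone had 391 CPM in WQ-2101 and 810 CPM in vehicle, and cells with Cd8a alone 247 CPM (217 to 281) and 352 CPM (317 to 390). The intervals of the libraries did not overlap in any of these groups. When each group was given equal weight in the 2 libraries, the log2 difference was -0.77. Ass1 was at 168 CPM in WQ-2101 and 163 CPM in vehicle in the Foxp3 cells, the highest T cell level of that gene. These groups were chosen after the values were seen.

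Further genes of arginine metabolism were counted in the same way. Of a list of 60 further genes for exchange, the urea cycle, nitric oxide, polyamines, proline, creatine and sensing, 41 were tested in tumour cells, with 0 higher and 0 lower, beside 1.3% called in either direction over all genes. Their median log2 difference was 0.02, against -0.01 over all genes. Castor1, which encodes an arginine sensor of the mTORC1 pathway, lay just inside the line in tumour cells, with 14.1 CPM in WQ-2101 and 7.76 CPM in vehicle and a log2 difference of 0.58. Slc3a2, the heavy chain of several amino acid exchangers, was at 182 CPM in WQ-2101 tumour cells and 168 CPM in vehicle ones. In macrophages and monocytes 41 were tested, with 0 higher and 1 lower beside 3.08% over all genes, and a median of 0.00 against 0.02 over all genes. The lower gene was Ckb, the brain-type creatine kinase, at 75.1 CPM in WQ-2101 and 118 CPM in vehicle. In T cells 37 were tested, with 1 higher and 1 lower beside 6.15% over all genes, and a median of -0.07 against -0.02 over all genes. The higher gene was Ddah2, which degrades methylated arginines, at 20 UMIs in WQ-2101 and 10 in vehicle. The lower was Asl, the enzyme that follows Ass1, at 18.1 CPM in WQ-2101 and 32.0 CPM in vehicle.

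The genes whose level ran most like that of Slc7a2 were Map4k3 (Pearson's r 0.93), Fmn1 (0.90), Cln8 (0.89), As3mt (0.89) and Pla2g4a (0.88). The correlation ran over 15 units, each a class in a library with at least 50 cells, on log2(CPM plus 5). For Arg1 they were Pf4 (0.97), Msr1 (0.96), Ccl12 (0.96), Ms4a7 (0.95) and F13a1 (0.95), and Ms4a7 is among the markers that set the macrophage class. For Nos2 they were Lrrc25 (0.91), Il1a (0.89), Gk (0.89), Itgam (0.89) and Tlr2 (0.89). The units share 2 libraries and mostly part macrophages from the rest, so these values are a description with no test.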

How the data were processed

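The authors deposited raw UMI counts per gene and barcode, unnormalised. Per the file headers, Cell Ranger 7.2.0 wrote the matrices. Cell Ranger 2.2.2 and GRCm38 are named per the submitters' processing notes. Whether counting used strand was not stated in the headers or labels. The deposited totals were 185587327 UMIs over 18142 barcodes (WQ-2101) and 184754398 over 14374 (vehicle). Barcodes needed 500 UMIs, 300 genes and at most 15% mitochondrial UMIs. Scrublet removed 753 and 545 doublets. Cells were gated on summed marker CPM, at levels set after the data were seen but without member values. Leiden clusters (scanpy 1.11.5, resolution 1) without the arginine genes were the alternative. Counts were summed per class and library, with exact Poisson, Clopper-Pearson and conditional intervals (scipy 1.17.1). Genes needed a mean of 5 CPM to be tested, and a count of 0 was given a limit of 3 counts. On Poisson counts simulated from the vehicle levels, 95.0% to 100.0% of 3-fold changes were recovered. That simulation held no spread between cells, mice or libraries, so it covers counting error only. Named genes were the 7 members, other arginine genes past 1.5-fold, and the 5 most correlated with Slc7a2, Arg1 and Nos2. Slc3a2, Castor1 and the T cell genes were named after values were seen. Members and lists were chosen with earlier results of these data known. Alternatives covered depth, gates, clusters, doublets, pseudocount, minimum level, centring, thinning, cell weights, score ranges and shared barcodes. Positions come from GENCODE vM21 (GRCm38).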

Additional observations from a re-analysis of the deposited data

Results flagged for a closer look

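Ass1 differed in opposite directions between classes. It was higher in WQ-2101 tumour cells, at 9.19 CPM against 3.65 CPM in vehicle, and lower in WQ-2101 T cells, at 29.2 CPM against 48.4 CPM in vehicle. The log2 difference in tumour cells minus that in T cells was 1.36. With 1 library per group this gap was not tested, and with cells weighted alike the T cell difference was -0.31 and within 1.5-fold.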

How the results depend on the processing

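No paired analysis was possible because each group is 1 library. No called difference changed direction under any of the alternatives run. Across them the log2 difference of Slc7a2 was 1.55 to 1.84 in tumour cells and 0.84 to 1.09 in macrophages and monocytes, that of Ass1 in tumour cells 0.63 to 1.13, and that of Odc1 in T cells -0.92 to -0.74. Slc7a2 was chosen for its tumour cell difference, so its range there is a description only. In macrophages and monocytes, with hypoxia ranges given equal weight, Arg1 passed 1.5-fold (-0.70) and Nos2 no longer did (0.52); the cause was not tested. Smaller members also crossed the line: Nos2 in tumour cells at a pseudocount of 1 (1.09), Ass1 in macrophages by Leiden clusters (0.65), and, in T cells, Slc7a2 by Leiden clusters (0.54) or with doublets kept (0.58), Arg1 thinned (-0.44) and Nos2 at a pseudocount of 1 (-0.96) or thinned (-0.73). Counts over all genes moved most with low levels. In tumour cells, 89 genes higher and 41 lower became 162 and 74 at a pseudocount of 1, and 47 and 22 at a minimum of 20 CPM. In macrophages and monocytes, 237 higher became 371 and 102 under these settings, 110 under the stricter gate, 105 by Leiden clusters and 116 with doublets kept, and 54 lower became 92 at a pseudocount of 1. In T cells, 287 higher and 307 lower became 531 and 587 at a pseudocount of 1, and 105 and 99 at 20 CPM. Classes under 100 cells hold few UMIs, so their levels have wide intervals.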

Other observations

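The cells that reached no class numbered 4534 in WQ-2101 and 2594 in vehicle, with median depths of 5701 and 10180.5 UMIs. Their Slc7a2 level was 96.0 CPM (93.0 to 99.1) in WQ-2101 and 55.4 CPM (52.8 to 58.0) in vehicle. Their Arg1 level was 142 CPM in WQ-2101 and 265 CPM in vehicle, and their Arg2 level was 13.3 CPM in WQ-2101 and 22.6 CPM in vehicle. Their Nos2 level was 7.22 CPM in WQ-2101 and 6.78 CPM in vehicle, with overlapping intervals. Vti1b, which lies on the strand opposite Arg2, was at 67.8 CPM in WQ-2101 macrophages and monocytes and 67.3 CPM in vehicle ones.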
